A study of Mus musculus with 4 samples.

Results

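The 10 genes described here control the passage of mouse cells through the G1 phase: the D-type cyclins Ccnd1, Ccnd2 and Ccnd3, their kinases Cdk4 and Cdk6, the inhibitors Cdkn1a, Cdkn1b and Cdkn2c, the transcription factor gene Myc and the retinoblastoma gene Rb1. They were chosen by name from the 19057 gene symbols on the array, and all probes of the array whose platform annotation gives 1 of these symbols were taken, which are 26 of 45281 probes. Of these, 19 probes of 8 genes were detected on at least 2 arrays and tested, among 16713 probes and 11628 genes (9200 with a symbol) tested in all. Illumina bead arrays were hybridised with RNA of sorted peritoneal macrophages. The 2 groups were control mice and mice labelled Mac-Gata6 KO, with genotype LysM-cre;Gata6-floxed, each with 2 arrays. All mice were untreated C57BL/6 animals of 8 to 16 weeks. Cre was driven from the lysozyme M locus, which is active in neutrophils and in most macrophages, so deletion was not restricted to peritoneal macrophages. The labels do not say whether control mice carried Cre, nor whether each replicate was its own animal or a pool. The p-values therefore reflect the spread among these 4 samples alone, and that spread may be technical.

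In G1 a cell decides whether to copy its DNA. D-type cyclins, made in response to growth signals, bind the kinases CDK4 and CDK6, and the complexes phosphorylate the retinoblastoma protein RB, which then releases E2F factors that switch on genes of DNA synthesis. Inhibitors of the INK4 family, which includes the Cdkn2c product p18, bind CDK4 and CDK6 directly, whereas those of the CIP/KIP family, such as p21 (Cdkn1a) and p27 (Cdkn1b), act on several cyclin-kinase complexes. MYC promotes growth and entry into the cycle. Resident peritoneal macrophages maintain themselves in part by local proliferation, and GATA6 is the transcription factor that marks the large cells among them. The comparison asks how these genes stood in macrophages in which Gata6 was deleted.

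Gata6 itself was detected on all arrays by its bright probe, at 13.77 and 13.66 in control and 13.07 and 12.83 in the knockout (log2 normalized intensity), or 59.0% of the control signal. The position of this probe relative to the deleted part was not given in the sources used here. It is therefore no check of the labels. A second, dim Gata6 probe was detected in both control samples but in neither knockout sample, a fall of at least 1.74-fold. Macrophage markers were present on every array: all 9 genes of the list that the array held, among them Adgre1, Csf1r and Mertk, were detected on all 4 arrays. The share of probes detected was 35.5% to 36.4% per array, and the median absolute difference over the genes tested was 0.16 between control arrays, 0.18 between knockout arrays and 0.26 to 0.30 across groups on the log2 scale. In RNA of a sorted population, fewer cells with a transcript and less of it per cell cannot be told apart.

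Among the G1 genes, Ccnd2 and Cdkn1a rose in the knockout and Cdkn2c fell, each by a little over 2-fold. The other 5 tested genes, Ccnd1, Ccnd3, Cdk4, Myc and Rb1, had negative log2 changes and did not pass at a Benjamini-Hochberg adjusted p of 0.05 in limma's moderated test. Thus 3 of 8 tested members were called, 2 higher and 1 lower, where 12.3% of all genes tested were called, 6.11% higher and 6.14% lower. Of the 19 tested probes 5 were higher and 2 lower, where 10.7% of all probes were called, 5.63% higher and 5.06% lower. An unadjusted p under 0.05 was reached by 6 of the 8 genes, 4 of them lower, and by 27.9% of all genes, 14.6% lower. The median log2 change over the 8 members was -0.38, against -0.01 over all genes tested. The 2 knockout arrays lay on one side of the 2 control arrays for all 8 members, lower for 6 and higher for 2. The same held for 56.8% of all genes, 29.2% lower and 27.6% higher, so with 2 arrays a group this separation alone is common. Cdk6, measured by 1 probe, and Cdkn1b, measured by 3, were not well above background on any array and gave no test.

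**Figure D1:**
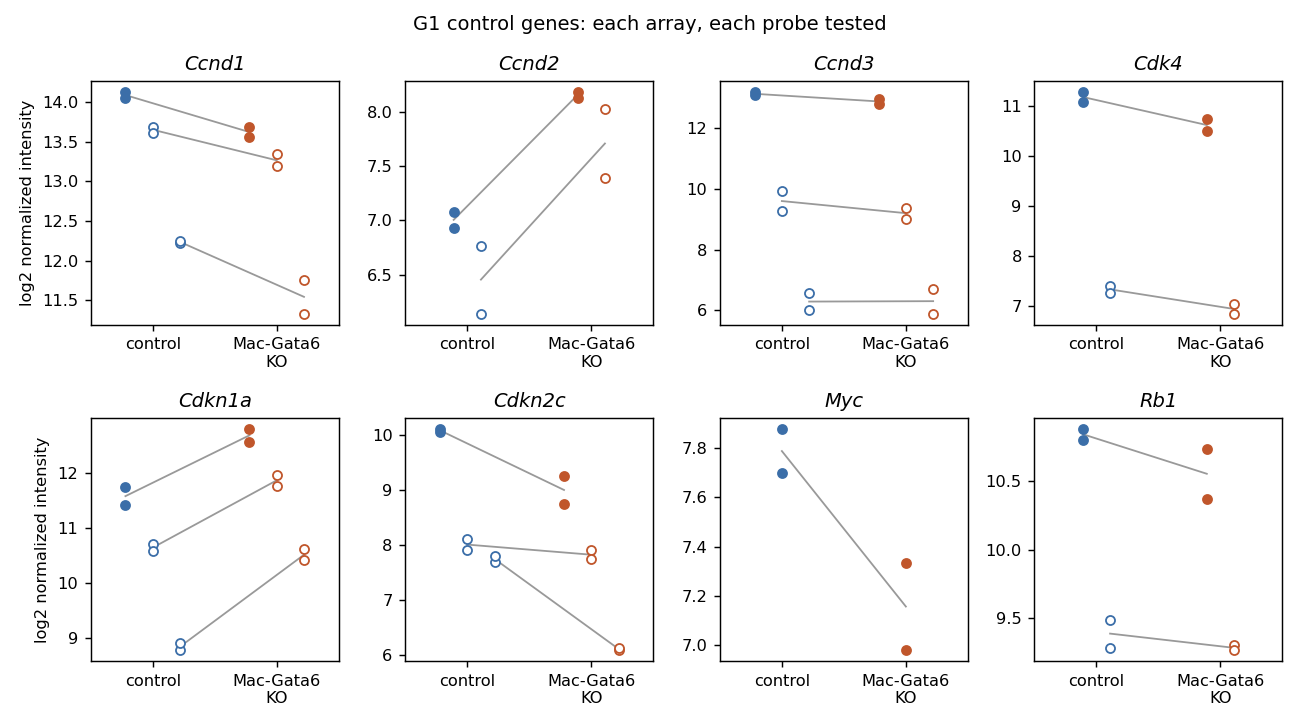
Log2 normalized intensity of each tested probe of the 8 G1 genes on the 2 control (blue) and 2 Mac-Gata6 KO (orange) arrays, 1 panel per gene. Points are arrays, filled for the probe that stands for the gene, and grey lines join group means. Ccnd2 and Cdkn1a probes lie higher in the knockout, and 2 of 3 Cdkn2c probes lie clearly lower.

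Of the D-type cyclins, Ccnd2 rose and the other two did not pass. Ccnd1, which couples growth signals to G1, gave 14.13 and 14.05 in control and 13.69 and 13.56 in the knockout (log2 normalized intensity). Both knockout arrays were lower, and the knockout held 72.3% of the control signal, with a log2 change of -0.47 ± 0.14 (SE of the fit, adjusted p = 0.0852, 95% interval -0.80 to -0.13). Its other probes pointed the same way, at -0.39 ± 0.15 and -0.69 ± 0.18 in the fit over all probes, and neither passed. Ccnd1 passed in 4 of 9 alternative settings that kept all arrays, at log2 changes from -0.52 to -0.46. Its adjusted p ranged from 0.0024 to 0.149 in those and from 0.153 to 0.296 with an array left out.

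Ccnd2 was dim in control macrophages and rose. Its brighter probe gave 6.93 and 7.08 in control and 8.13 and 8.18 in the knockout, so the groups were far apart relative to the spread within each. The change was 2.22-fold, or 1.15 ± 0.14 on the log2 scale (adjusted p = 0.00456, 95% interval 0.81 to 1.49). A second probe of the same transcript record gave 6.77 and 6.14 against 7.39 and 8.03, a noisier rise of 1.25 ± 0.29 (adjusted p = 0.0442 over all probes). The remaining 2 probes, designed to other cDNA records, were not well above background on any array. The brighter probe passed with any 1 array left out (log2 changes 1.08 to 1.22, adjusted p from 0.0216 to 0.0326). The second did not pass without control 2 (adjusted p = 0.129), without knockout 1 (0.0624), without knockout 2 (0.159) or with no detection filter (0.108). The fitted size of Ccnd2 was smallest without background correction, at 0.71.

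Ccnd2 is also expressed by B lymphocytes, and B cell markers moved in the same direction. Of 11 B cell markers on the array 6 were tested, and 5 rose with none fallen, among them Cd79b (log2 change 0.98 ± 0.18) and Pou2af1 (1.39 ± 0.17). Over all genes tested 6.11% were called higher. The summed intensity of the B cell list was 1161 and 1127 in control and 2103 and 2331 in the knockout. Cr2, Ebf1, Pax5 and Vpreb3 were not detected on any array, Ms4a1 was detected on 1 control array and on neither knockout array, and Cd79a and Ighm had no probe under those symbols. With 1 array left out 3 to 4 of these markers passed, 3 of them without knockout 2. The part of B cells in the Ccnd2 result was not tested.

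Ccnd3, the third D-type cyclin, gave 13.08 and 13.19 in control and 12.96 and 12.80 in the knockout, a log2 change of -0.25 ± 0.14 (adjusted p = 0.318, 95% interval -0.60 to 0.10). Its other probes, designed to a different transcript record, had overlapping groups, with log2 changes of -0.40 ± 0.25 and 0.01 ± 0.31. No setting called any of the 3 probes, and with 1 array left out the log2 change of the last ran from -0.40 to 0.42.

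The catalytic partners could be followed only in part. Cdk4 gave 11.09 and 11.28 in control and 10.51 and 10.74 in the knockout. Both knockout arrays were lower, at 67.7% of the control signal, and the log2 change was -0.56 ± 0.16 (adjusted p = 0.0726, 95% interval -0.95 to -0.18). Cdk4 passed in 5 of 9 settings with all arrays kept and in none with an array left out, with adjusted p from 0.0055 to 0.277 over all of them. A dimmer Cdk4 probe had a log2 change of -0.39 ± 0.16 and passed in none. Rb1, the substrate of these kinases, gave 10.89 and 10.81 in control and 10.37 and 10.74 in the knockout, and the log2 change of -0.29 ± 0.17 did not pass (adjusted p = 0.334, 95% interval -0.70 to 0.12). Its second probe had overlapping groups and a change of -0.10 ± 0.15. For both Rb1 probes the interval leaves room for a fall but not for a rise of the size seen for Ccnd2.

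**Figure D2:**
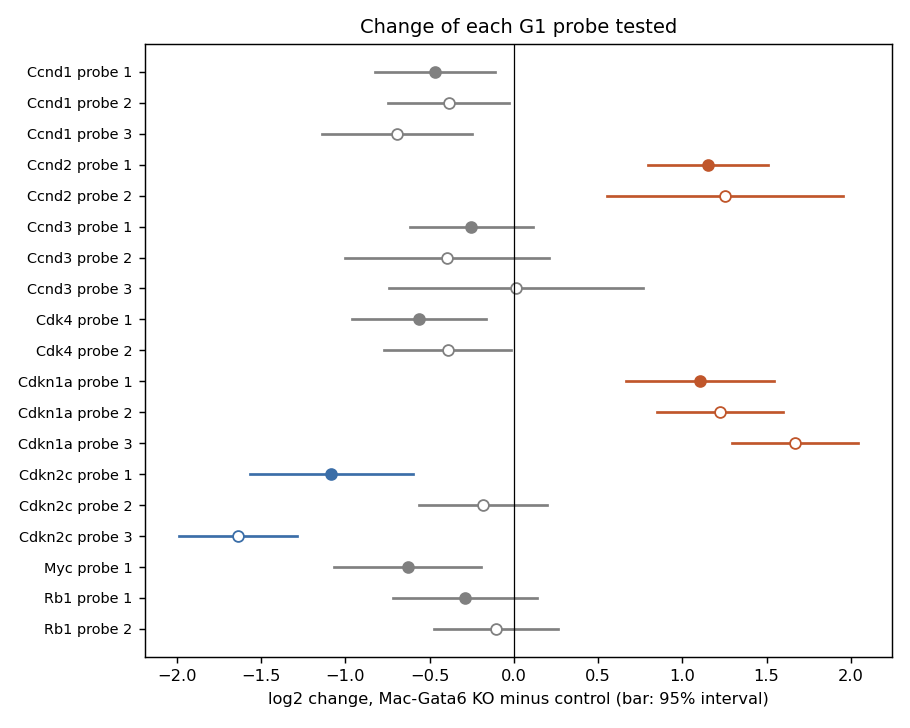
Log2 change (Mac-Gata6 KO minus control) of each of the 19 G1 probes tested, with 95% intervals of the fit over all probes, brightest probe of a gene first and filled when it stands for the gene. Called probes are orange (5 higher) or blue (2 lower), and grey probes did not pass.

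The CDK inhibitors changed in opposite directions. Cdkn1a, whose product p21 halts the cycle after p53 activation and in differentiating cells, rose on all 3 of its probes. The brightest gave 11.41 and 11.74 in control and 12.80 and 12.56 in the knockout, a 2.15-fold rise of 1.10 ± 0.18 on the log2 scale (adjusted p = 0.0119, 95% interval 0.68 to 1.53). The other probes, at 10.70 and 10.58 against 11.76 and 11.96, and at 8.77 and 8.91 against 10.61 and 10.41, rose by 1.22 ± 0.16 and 1.67 ± 0.16 in the fit over all probes (adjusted p = 0.0055 and 0.0017). No control array reached a knockout array on any of the 3. The brightest probe did not pass without control 1 (adjusted p = 0.0594) or without knockout 1 (0.0724), while the other probes passed with any 1 array left out. Over all alternatives its adjusted p ran from 6.9e-06 to 0.0724.

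Cdkn2c, which encodes the INK4 inhibitor p18, fell. Its brightest probe gave 10.11 and 10.05 in control and 9.25 and 8.75 in the knockout, 47.2% of the control signal and a log2 change of -1.08 ± 0.20 (adjusted p = 0.0190, 95% interval -1.56 to -0.61). A probe of the same transcript record gave 7.69 and 7.80 against 6.08 and 6.13, a change of -1.64 ± 0.14 (adjusted p = 0.0014 over all probes). The third probe, designed to another cDNA record, gave 8.10 and 7.91 against 7.90 and 7.74, and did not pass (-0.18 ± 0.16, adjusted p = 0.526). Cdkn2c signal therefore fell on 2 of its 3 probes. With 1 array left out the brightest probe passed only without knockout 1. It did not pass without control 1 (adjusted p = 0.0785), without control 2 (0.0668) or without knockout 2 (0.0546), and its adjusted p went down to 6.9e-05 with all arrays kept. The dimmer probe passed in each of these settings.

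The promoter windows of the 2 inhibitors that passed are shown because GATA6 and p53, which acts on Cdkn1a, both bind DNA at short motifs. The sequences are those of RefSeq on GRCm38.p6, each reaching from 250 bases before an annotated start to 50 after it. Of the 10 members 6 had a window, and Ccnd1, Ccnd2, Myc and Rb1 had none. Capitals mark GATA on either strand (printed as GATA or TATC) and, in the upstream Cdkn1a window, the p53 response element, taken as adjoining half-sites with at most 1 mismatch.
Cdkn1a upstream start, chr17:29090729-29091028, plus strand: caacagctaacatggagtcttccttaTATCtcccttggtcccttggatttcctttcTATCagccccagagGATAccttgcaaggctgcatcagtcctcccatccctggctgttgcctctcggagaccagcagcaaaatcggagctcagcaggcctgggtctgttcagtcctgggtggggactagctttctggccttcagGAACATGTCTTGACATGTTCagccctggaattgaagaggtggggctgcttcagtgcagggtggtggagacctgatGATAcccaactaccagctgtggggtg
Cdkn1a downstream start, chr17:29093519-29093818, plus strand: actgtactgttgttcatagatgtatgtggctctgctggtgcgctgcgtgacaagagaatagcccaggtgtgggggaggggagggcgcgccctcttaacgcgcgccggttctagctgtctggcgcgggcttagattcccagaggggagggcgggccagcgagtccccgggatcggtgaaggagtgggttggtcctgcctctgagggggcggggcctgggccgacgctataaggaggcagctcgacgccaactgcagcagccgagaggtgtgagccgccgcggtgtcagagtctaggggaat
Cdkn2c upstream start, chr4:109666707-109667006, minus strand: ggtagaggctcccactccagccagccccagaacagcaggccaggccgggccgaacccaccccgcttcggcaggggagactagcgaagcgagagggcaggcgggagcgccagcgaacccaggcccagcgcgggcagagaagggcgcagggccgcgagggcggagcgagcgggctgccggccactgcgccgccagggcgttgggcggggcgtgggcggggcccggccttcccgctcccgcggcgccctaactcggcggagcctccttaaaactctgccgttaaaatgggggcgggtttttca
Cdkn2c downstream start, chr4:109665323-109665622, minus strand: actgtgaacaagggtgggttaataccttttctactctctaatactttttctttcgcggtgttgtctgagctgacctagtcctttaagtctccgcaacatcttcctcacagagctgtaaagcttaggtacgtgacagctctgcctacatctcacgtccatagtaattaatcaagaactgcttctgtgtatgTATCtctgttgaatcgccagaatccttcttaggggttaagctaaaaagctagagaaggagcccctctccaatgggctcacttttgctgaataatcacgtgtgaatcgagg
The upstream Cdkn1a window held 4 GATA matches and a p53 element at positions 200 to 219, counted from 1 at the 5′ end of the window. The downstream Cdkn1a window held neither. In Cdkn2c the upstream window held no GATA match and the downstream window held 1, at positions 191 to 194. GATA on either strand occurs in 57.9% of the 32851 promoter windows and the p53 element in 0.0883%. A match describes the letters and not binding in these cells.

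Myc was dim, and its change did not pass. The detected probe gave 7.70 and 7.88 in control and 7.34 and 6.98 in the knockout, 64.6% of the control signal and a log2 change of -0.63 ± 0.17 (adjusted p = 0.0704, 95% interval -1.05 to -0.21). Both knockout arrays were lower than both control arrays. Myc passed in 5 of 9 settings with all arrays kept and in none with an array left out (adjusted p from 0.0368 to 0.251 over all of them). The fitted change was -0.38 without background correction. The second probe was not well above background on any array.

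MYC dimers and related factors bind the E-box CACGTG, and Cdk4 is a known MYC target, so its window is shown with this motif in capitals. The motif reads the same on both strands.
Cdk4, chr10:127063285-127063584, plus strand: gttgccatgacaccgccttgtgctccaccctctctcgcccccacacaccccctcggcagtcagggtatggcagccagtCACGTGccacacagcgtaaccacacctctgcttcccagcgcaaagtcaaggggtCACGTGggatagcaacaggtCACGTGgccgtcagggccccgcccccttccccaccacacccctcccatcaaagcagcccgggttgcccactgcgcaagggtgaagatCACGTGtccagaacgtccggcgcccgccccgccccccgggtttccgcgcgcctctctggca
The window held 4 CACGTG matches, at positions 79 to 84, 133 to 138, 153 to 158 and 240 to 245, and 1 GATA match not marked here. CACGTG occurs in 7.15% of all windows and at least 4 times in 0.0244%. The cutoff of 4 was taken from the Cdk4 window itself, so the second share only describes it. The downstream Cdkn2c window and the Cdk6 window held 1 CACGTG match each. Beside the falls of Myc and Cdk4 that did not pass, few other MYC targets were called. Of 20 tested targets other than Cdk4, 1 rose and none fell, where 6.11% of all genes were called higher and 6.14% lower. The median log2 change of these targets was -0.23, against -0.01 over all genes tested. The gene that rose was transferrin receptor Tfrc (1.87 ± 0.16), while the pyrimidine synthesis gene Cad (-0.75 ± 0.18, adjusted p = 0.0503) and spermidine synthase Srm (-0.60 ± 0.17, adjusted p = 0.0813) did not pass. With an intensity trend and robust variance, 5 of the MYC targets fell, Cdk4 among them. In that setting 1134 of all 11628 genes tested were called lower. MYC's network partners also stayed below the threshold. None of 10 passed in limma's test, and 3 had an unadjusted p under 0.05, as had 27.9% of all genes. The antagonists Mxd1 (0.72 ± 0.18, adjusted p = 0.0509) and Mxi1 (-0.86 ± 0.22, adjusted p = 0.0604) pointed opposite ways. In 6 alternative settings both of these passed. Mnt had a log2 change of 0.41 ± 0.16.

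Among other regulators of G1 and of entry into S phase, the CDK inhibitors Cdkn2b and Cdkn1c fell, while Cdkn2d (log2 change 0.30 ± 0.17, adjusted p = 0.316) and Cdkn2a (0.22 ± 0.15, adjusted p = 0.391) did not pass. The other Cdkn2a probes had changes of -0.36 and 0.08. Cdkn1c, Cdkn2d and Cdkn2a were chosen after their values were seen. Of 23 tested, 1 rose and 3 fell, where 6.11% of all genes were called higher and 6.14% lower. The median log2 change of the 23 was -0.01. Cdkn2b, the INK4 inhibitor p15, gave 8.68 and 8.40 in control and 6.39 and 6.91 in the knockout, a fall of 1.89 ± 0.21 on the log2 scale (adjusted p = 0.0037). Cdkn1c, the CIP/KIP inhibitor p57, changed by -1.17 ± 0.19 (adjusted p = 0.0122). The RB relative Rbl2 fell by at least 1.43-fold and was not well above background in either knockout sample, and E2f5, an E2F factor known mainly as a repressor, rose by 0.91 ± 0.13 (adjusted p = 0.0087). E2f5 did not pass without control 1 (0.0548), Cdkn1c without control 2 (0.0607) or Rbl2 without knockout 2 (0.0545). Rbl2 was detected on the control arrays alone, so without either of them it was not tested. The cyclin E partner Cdk2, chosen after its value was seen, had a log2 change of -0.06 ± 0.15 on its brightest probe.

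Downstream of RB, genes of DNA synthesis had mostly small negative changes. Of 22 tested E2F targets 18 were negative, with a median log2 change of -0.35. In limma's test 11 had an unadjusted p under 0.05, and after adjustment 1 fell and none rose. Among all 11628 genes tested 5927 were negative, 27.9% had an unadjusted p under 0.05, and 6.11% were called higher and 6.14% lower. Thymidine kinase Tk1 changed by -0.68 ± 0.13 (adjusted p = 0.0257) and did not pass with median scaling, with the replicate block or with any 1 array left out. The helicase subunit Mcm5 (-0.50 ± 0.15, adjusted p = 0.085) and the methylation maintenance factor Uhrf1 (-0.45 ± 0.14, adjusted p = 0.0909) did not pass. Without background correction 8 E2F targets fell, and 1142 of all 11628 genes tested were then called lower. Among 13 proliferation markers 10 were negative (median -0.40) and 7 had an unadjusted p under 0.05. After adjustment 1 fell and 1 rose. Top2a, the topoisomerase of dividing cells, changed by -0.74 ± 0.17 (adjusted p = 0.0397) and lost its call with any 1 array left out. Kif23, a kinesin of cytokinesis, rose by 1.14 ± 0.14, though 1 of its 3 tested probes had a log2 change of -0.23 ± 0.18. Aurka, a mitotic kinase, did not pass (-0.57 ± 0.15, adjusted p = 0.0592). The proliferation markers and E2F targets share Cdk1.

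Genes known as p53 targets were mostly higher, as Cdkn1a was. Apart from Cdkn1a, 8 of 15 tested rose and 1 fell, 14 had a positive change, and the median log2 change was 0.57. Among all 11628 genes tested 6.11% were called higher and 6.14% lower, and 5701 had a positive change. All 15 were detected on at least 1 array of both groups. Phlda3, an inhibitor of AKT signalling, gave 7.11 and 6.71 in control and 8.91 and 9.06 in the knockout, a rise of 2.08 ± 0.18 (adjusted p = 0.0014). The stress sensor Sesn2 rose by 1.15 ± 0.14 (adjusted p = 0.0050). Mdm2, the ubiquitin ligase that degrades p53, rose by 0.73 ± 0.14 (adjusted p = 0.0205). Mdm2 and Bbc3, named below, lost their calls whichever array was left out. Plk2 (1.27), Zmat3 (0.94), Trp53inp1 (0.88), Ddit4 (0.78) and Bbc3 (0.57, with an adjusted p just under the threshold) also rose, and with Mdm2 are named after their values were seen. Gadd45a, a growth arrest gene, went the other way, from 9.79 and 10.17 to 8.01 and 7.84, a fall of 2.05 ± 0.18 (adjusted p = 0.0014). Several of these genes, among them Ddit4, Plk2, Sesn2 and Gadd45a, also respond to stress signals other than p53. With Cdkn1a counted, 9 of 16 rose in the main setting, 7 with no detection filter and 3 to 6 with 1 array left out (4 without control 1, 5 without control 2, 3 without knockout 1 and 6 without knockout 2).

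**Figure D3:**
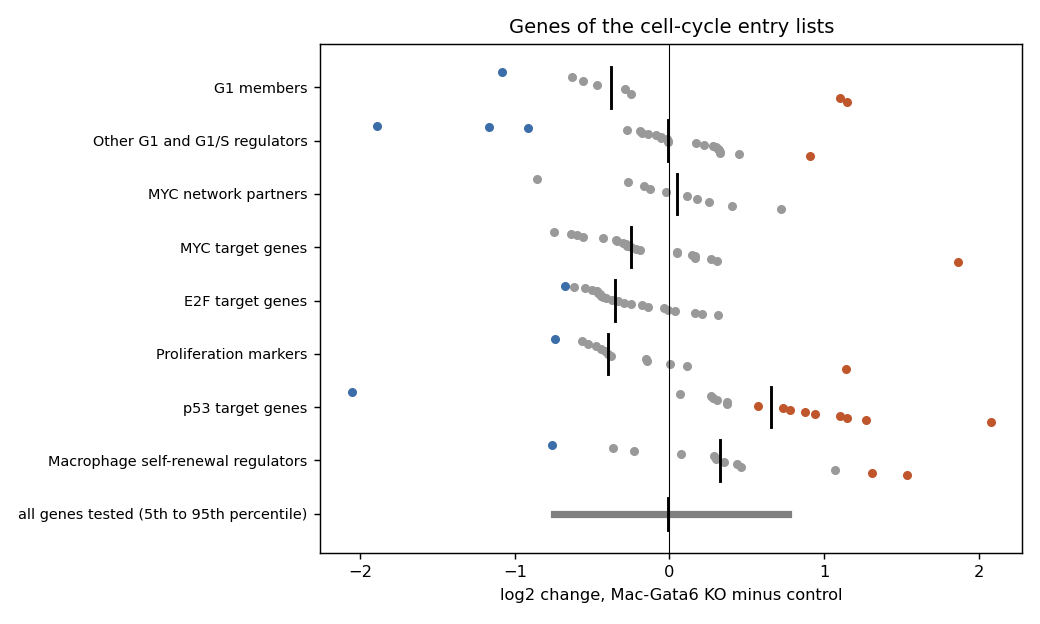
Log2 change (Mac-Gata6 KO minus control) of each tested gene in the G1 set and 7 lists around it, orange when called higher, blue when called lower and grey otherwise. Black marks are medians, and the grey bar spans the 5th to 95th percentile of all genes tested (-0.75 to 0.77). The p53 target list lies mostly to the right of 0, with median 0.65 when Cdkn1a is included, and the E2F target list mostly to the left.

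Of 12 tested regulators tied to macrophage self-renewal 9 had a positive change, with a median log2 change of 0.33. Among all 11628 genes tested 5701 had a positive change. In mouse macrophages the factor MAF restrains proliferation, and MYC with KLF4 promotes it. Of the 12 genes 2 were called higher, and the 1 called lower was Gata6, the gene deleted in the knockout. Maf gave 6.20 and 6.49 in control and 7.64 and 8.13 in the knockout, a rise of 1.54 ± 0.21 (adjusted p = 0.0071). Klf4 gave 11.43 and 11.01 against 12.45 and 12.60, a rise of 1.31 ± 0.18 (adjusted p = 0.0075), and its other probes rose by 1.13 ± 0.15 and 1.27 ± 0.23. Klf4 was thus higher while the log2 change of Myc was negative. Il4ra, the receptor through which interleukin 4 drives macrophage division, was detected on 1 control array and did not pass (1.07 ± 0.29, adjusted p = 0.0681). Pooled over the 7 lists with each gene once and the G1 members left out, 20 of 110 genes were called (18.2%), 13 higher and 7 lower. The p53 targets gave 9 of these calls, 8 higher and 1 lower, and no other list gave more than 4. Among all genes tested 12.3% were called, 6.11% higher and 6.14% lower. The 7 lower genes of the pool include Gata6, the deleted gene itself. They also include Rbl2, which was tested only because it was detected on the control arrays.

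Genes on the marker lists of other cells changed too, and those named here were chosen after their values were seen. Over all genes tested 6.11% were called higher and 6.14% lower. Of 7 erythroid genes on the array 4 were tested and 3 rose. The summed intensity of this list was 283 and 292 in control and 968 and 960 in the knockout. Hba-a1 and Hbb-bs were detected on the knockout arrays alone, so they entered the test only through the group where they were higher. Alas2, Epor and Slc4a1 were not detected on any array. Without either knockout array the globin genes Hba-a1 and Hbb-bs were not tested, and 1 erythroid gene passed. In the T and NK cell list 2 of 10 were tested and Cd2 rose (2.08 ± 0.17), while Cd3d, Cd3e and Cd3g were not detected on any array. Of 9 genes of the neutrophil list on the array 2 were tested, S100a8 and Csf3r, and both fell. Cxcr2, Ltf, Mpo, Ngp and S100a9 were not detected on any array. Csf3r did not pass whichever array was left out (adjusted p from 0.0752 to 0.102), and S100a8 then passed only without knockout 2 (0.0248). In the mast cell list Cpa3 rose (0.71 ± 0.14, 1 of 4 tested), in the eosinophil list Alox15 fell (-1.27 ± 0.15, 1 of 2), and in the dendritic cell list Ccr7, not well above background in control, was at least 1.17-fold higher (1 of 2). Cpa3 did not pass whichever array was left out (adjusted p from 0.0703 to 0.140), and Ccr7 did not pass without either control (0.0594 and 0.0993) and was not tested without either knockout. Kit, Siglecf, Prg2, Epx, Ccr3, Flt3, Zbtb46 and Xcr1 were not detected on any array, nor were 8 of 9 mesothelial and stromal markers. In control Alox15 averaged 14.83, near the macrophage marker Adgre1 at 14.71. The source of the Alox15 signal was not tested. Of the macrophage markers 3 of 9 fell: Adgre1, which encodes F4/80 (-1.56 ± 0.17, 33.9% of control), the Fc receptor gene Fcgr1 (-2.94 ± 0.13, 13.0%) and Icam2 (-0.56 ± 0.14, adjusted p = 0.0491), which lost its call whichever array was left out. The list had a summed intensity of 158631 and 155400 in control and 127571 and 139569 in the knockout. The part of other cells in the changes of Ccnd2, Cdkn1a and Cdkn2c was not tested.

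**Figure D4:**
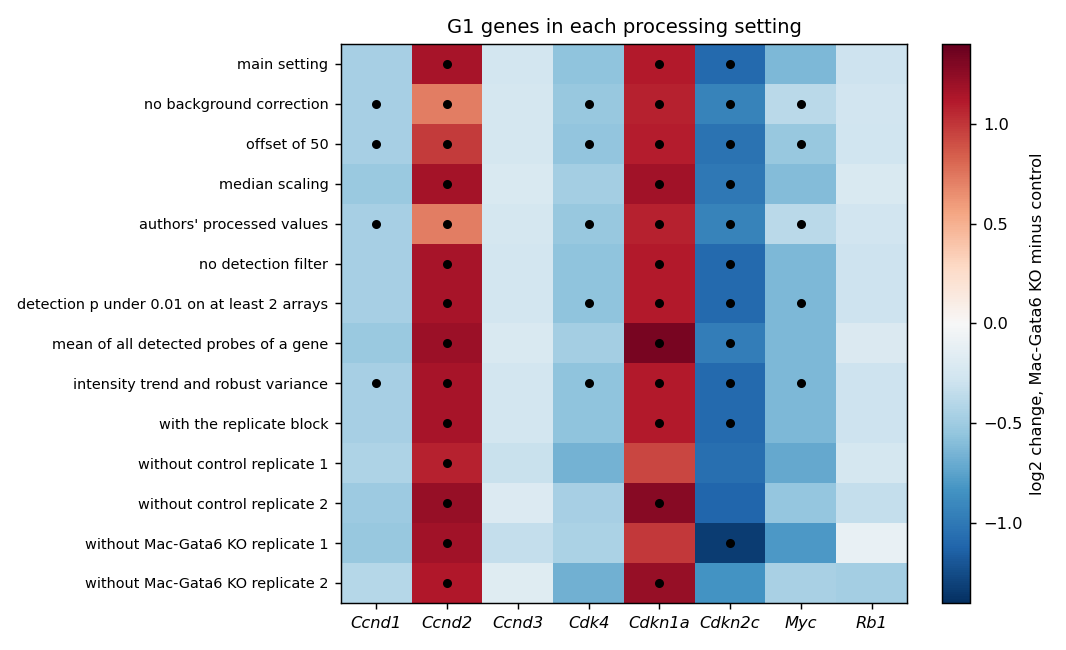
Log2 change (colour) of the 8 tested G1 genes in the main setting and 13 alternatives, with a dot where the adjusted p was under 0.05. Ccnd2 carries a dot in every row, Cdkn1a and Cdkn2c in every row that kept all arrays, and Ccnd1, Cdk4 and Myc only in some of the rows that kept all arrays. No gene changes sign.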

How the data were processed

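Of the 2 tables the authors deposited, the first holds raw probe intensity and a detection p-value per probe and array, per the file headers. The second holds the authors' processed intensity, linear by its values, with column medians of 142.05 to 142.14 and the probes of each array ranked as in the first. The software used for both was not given in the sources used here. The intensities were background-corrected from the detection p-values, given an offset of 16, quantile normalized and put on the log2 scale with neqc (limma 3.58.1, R 4.3.3). Probes detected at p under 0.05 on at least 2 arrays were kept, and a gene was represented by its brightest probe. By the platform annotation 34885 probes had 1 symbol, 18 had several and 10378 had none. Blank lines (1349) were dropped.

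Groups were compared with lmFit and eBayes, without a block, two-sided, with Benjamini-Hochberg adjustment over 11628 genes or, for single probes, 16713 probes. The fit was tested on simulated data. The ± values are standard errors from the fit (n = 2 arrays per group). For a probe undetected in a whole group, a bound on the fold uses, per array, the higher of its own value and the lowest detected value. The number of arrays limits the precision, and an exact permutation test of 2 against 2 was not used. The genes named by rule were all members, Gata6 and up to 3 genes of smallest p in each pathway list. Other named genes were not chosen by that rule. The members and lists were chosen with earlier results of these data known. Same-numbered arrays deviated with a correlation of -0.13 across genes. With 2 arrays a group the deviations mirror each other, so this value cannot show whether replicate numbers pair the samples. The labels name no pairing.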

Additional observations from a re-analysis of the deposited data

How the results depend on the processing

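Of the G1 genes, 3 were called in the main setting, 6 under each of 4 alternatives (background left uncorrected, an offset of 50, the authors' values, a robust variance with an intensity trend), 5 with detection at p under 0.01, and 1 to 2 with 1 array left out. The called probes numbered 7, and 12 with no background correction, with the authors' values or with the trend, and 5 with 1 array left out. The pathway genes called numbered 20, and 38 with the authors' values or no background correction, 33 with the offset of 50, 41 with the trend, and 12 to 14 with 1 array left out. Over all genes the counts of higher and lower calls were 711 and 714, and 1101 and 1142 with no background correction, 1100 and 1142 with the authors' values, 1089 and 1134 with the trend, and 261 to 404 and 245 to 410 with 1 array left out. Leaving out an array, after joint normalization, lowers the degrees of freedom. The cause of the other differences was not tested. No gene-level value for a G1 gene or Gata6 changed sign. Of their 81 values with all arrays kept, 67 kept their side of the threshold, 14 newly passed and 0 lost their call, and with an array left out 9 of 36 lost it. Gata6 lost its call whichever array was left out (log2 changes from -0.88 to -0.64). With the replicate block 3 G1 genes, 7 probes and 20 pathway genes were called, and it changed none of the G1 calls. Scaling moved the median of all genes by less than 0.1, the largest value being 0.04 with median scaling. No slide is named, so no block for it was run. Dim probes (Ccnd2, Myc) limit fold sizes, which shrink without background correction.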
